A study of Homo sapiens with 2 samples.

Results

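The mRNAs of 10 glycolysis genes were measured in RNA that co-precipitated with LRPPRC from A549 cells, a lung adenocarcinoma line. The genes are GPI, ALDOA, TPI1, GAPDH, PGK1, PGAM1, ENO1, PKM, LDHA and LDHB, taken by name from the 16770 different gene names of the table and ordered by pathway step. All 10 have exactly 1 row. GPI acts before phosphofructokinase, and the other genes cover the pathway from aldolase to lactate dehydrogenase. Only 1 condition with 2 libraries was used, namely RNA immunoprecipitation (RIP) with an anti-LRPPRC antibody from lysates of A549 cells labelled WT and epithelial, with no treatment given. The series text calls the replicates technical and the paper calls them biological, so the spread given here may be technical only.

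Glycolysis splits glucose into trioses and oxidises them to pyruvate, and lactate dehydrogenase turns pyruvate into lactate so that NAD+ is regenerated. Cancer cells often run this route at a high rate even with oxygen present. LRPPRC is best known as a stabiliser of mitochondrially encoded mRNAs, whereas the glycolysis enzymes are encoded in the nucleus and made in the cytosol.

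Values are FPKM, a gene's fragments relative to transcript length and to all fragments mapped. These are levels in the precipitate. Libraries of input RNA and of the IgG control were not used here, so binding to LRPPRC and high expression cannot be told apart. The summed FPKM was 196627 in replicate 1 and 194839 in replicate 2, and the sequencing depth is unknown. Of 5 epithelial markers, KRT8 had 337 FPKM and KRT18 had 51.1, whereas KRT19 had 12.1, CDH1 1.33 and EPCAM 0.430. Of 9 markers of leukocytes, red cells, fibroblasts and endothelium, 6 had a row and all 6 were below 1 FPKM in both libraries, and PTPRC, CD3E and HBA1 had no row. With 2 values a gene, an exact permutation test of a pair of genes cannot give a two-sided p below 0.333, so the order of genes is a description. Values of a pair of genes were called apart where the libraries did not overlap.

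Most of the glycolysis mRNAs were among the highest in LRPPRC RIP, and PGK1 stood apart from the rest. Of the 10 genes, 9 had a mean above FPKM 30, the cut-off the study uses for RIP-seq. Among the 10441 named genes with at least 1 FPKM in both libraries, 13.6% were above it, and among all 16770 names 8.46% were. The 10 genes had a median of 223 FPKM, against 6.81 for those 10441 genes and 50.2 for all named genes above 30. By mean FPKM, 6 of the 10 ranked within the first 100 named genes and 9 within the first 300. Their share of all FPKM was 1.62% in replicate 1 and 1.61% in replicate 2, and TPI1 alone held 39.7% and 38.9% of their sum.

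The libraries gave nearly the same values for these mRNAs. The larger value exceeded the smaller by a factor of 1.002 for LDHA to 1.07 for GAPDH. Among the 10441 genes, 1.52% differed by more than 1.5 times, and none of the 10 did. The median absolute log2 ratio of the libraries was 0.05 over the 10 genes and 0.04 over all named genes above FPKM 30. Replicate 1 was higher for 8 genes, and replicate 2 was higher for GPI and GAPDH.

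In the preparatory steps, the mRNA level per length was highest for TPI1. GPI, which turns glucose phosphate into fructose phosphate, had 169 FPKM (replicate 1) and 176 FPKM (replicate 2), a mean of 173 ± 4.80 (SD, n = 2), and ranked 115. Its MANE transcript (the agreed reference transcript) lies at chr19:34365196-34402413 on the plus strand of GRCh38 and has 18 exons and 4125 bases. ALDOA, the aldolase that splits fructose bisphosphate, had 219.5 FPKM in replicate 1 and 212 in replicate 2, with a mean of 216 ± 5.43 (SD, n = 2). It ranked 85, and its transcript at chr16:30065760-30070414 on the plus strand has 10 exons and 1640 bases. All values of ALDOA were above those of GPI, by a ratio of means of 1.25.

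TPI1, the isomerase that interconverts the trioses made by aldolase, had 1261 FPKM in replicate 1 and 1220.4 in replicate 2, with a mean of 1241 ± 28.8 (SD, n = 2). It ranked 1 of the 16770 names in replicate 1 and 2 in replicate 2. Its level was 3.38 times that of GAPDH, the next of the 10 genes, and their libraries were far from overlapping. The transcript is short, with 7 exons and 1351 bases at chr12:6867531-6870948 on the plus strand, of which 747 bases are coding and 565 are 3′ UTR.

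GAPDH, which oxidises glyceraldehyde phosphate and is a common reference transcript, had 355 FPKM in replicate 1 and 379 in replicate 2. Its mean was 367 ± 16.7 (SD, n = 2), and its coefficient of variation, 4.55%, was the largest of the 10 genes. The values of GAPDH enclosed those of PGAM1, and these mRNAs were not apart. GAPDH lies at chr12:6534517-6538371 on the plus strand, with 9 exons and 1285 bases. The study used it in PCR of cell lysates, with primers that are shown because GAPDH has many near-identical copies in the genome. The forward primer matches exon 4 at chr12:6536716-6536735 and the reverse primer exon 5 at chr12:6536957-6536976, so the product of 132 bases spans an intron.
GAPDH-F: caaattccatggcaccgtca
GAPDH-R: gactccacgacgtactcagc
Of 11 copies of at least 90% identity, 3 hold an exact match of the forward primer and 1 of the reverse primer, and 0 hold both.

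PGK1, the kinase that makes the initial ATP of the pathway, had the lowest level of the 10. It had 22.4 FPKM in replicate 1 and 21.6 in replicate 2, with a mean of 21.97 ± 0.554 (SD, n = 2), and ranked 1998. It was below FPKM 30 in both libraries. LDHA, the next gene up, was 4.32 times higher, and TPI1 was 56.5 ± 0.110 times higher (SD, n = 2). The reactions on either side of PGK1 were represented far more strongly, since GAPDH was 15.9 times higher in replicate 1 and 17.6 times in replicate 2. The PGK1 transcript, at chrX:78104248-78129295 on the plus strand, is the longest of the 10, with 11 exons, 4812 bases, of which 1251 are coding and 3465 belong to the 3′ UTR. The product of FPKM and this length was also lowest for PGK1. Whether transcript length affects its level was not tested.

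The enzymes that follow turn phosphoglycerate into pyruvate. PGAM1, the mutase, had 368 FPKM in replicate 1 and 364 in replicate 2, with a mean of 366 ± 2.76 (SD, n = 2), and ranked 37. ENO1, the enolase, had 109.5 and 105 FPKM, with a mean of 107 ± 3.05 (SD, n = 2), and ranked 232. PKM, the pyruvate kinase of most tissues and of tumours, had 347 and 338 FPKM, with a mean of 342 ± 6.22 (SD, n = 2), and ranked 43. ENO1 thus stood below both neighbours in the pathway in each library. PKM lay just under PGAM1 by a ratio of 1.07, and their values did not overlap. PGAM1 lies at chr10:97426191-97433444 on the plus strand (4 exons, 1802 bases), ENO1 at chr1:8861000-8878686 on the minus strand (12 exons, 1781 bases) and PKM at chr15:72199029-72231190 on the minus strand (11 exons, 2305 bases). The splice forms of PKM are not separated in these values, and the annotation lists 25 transcripts for it.

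Lactate dehydrogenase is a tetramer of subunits encoded by LDHA, the form that prevails in muscle and in many tumours, and LDHB, which prevails in heart. LDHA had 94.9 FPKM in replicate 1 and 94.7 in replicate 2, with a mean of 94.8 ± 0.135 (SD, n = 2), and ranked 281. LDHB had 233 and 229 FPKM, with a mean of 231 ± 2.64 (SD, n = 2), and ranked 78. LDHB was 2.43 ± 0.0244 times LDHA (SD, n = 2), and it held 71.0% of their sum in replicate 1 and 70.7% in replicate 2. The libraries of these genes were far from overlapping. LDHA lies at chr11:18394563-18408425 on the plus strand (8 exons, 2241 bases) and LDHB at chr12:21635342-21657842 on the minus strand (8 exons, 1303 bases). By FPKM times length LDHB was 1.42 times LDHA, a smaller ratio in the same direction.

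From high to low, the order was TPI1, GAPDH, PGAM1, PKM, LDHB, ALDOA, GPI, ENO1, LDHA and PGK1. Of the 9 neighbouring pairs, GAPDH and PGAM1 were the only pair whose libraries overlapped. LDHB and ALDOA were close, with a ratio of 1.07, as were ENO1 and LDHA, with a ratio of 1.13.

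FPKM multiplied by transcript length approximates a gene's share of fragments, and on that scale the glycolysis genes were less prominent among all genes. The product with the length in kb was 1676 for TPI1, 789 for PKM, 712 for GPI, 660 for PGAM1, 472 for GAPDH, 354 for ALDOA, 301 for LDHB, 213 for LDHA, 191 for ENO1 and 106 for PGK1. The highest and lowest of the 10 differed by 15.9 times, against 56.5 times by FPKM. Among 16463 named genes with a length, TPI1 ranked 22 by the product and 1 by FPKM, GAPDH ranked 256 and 36, and ENO1 ranked 943 and 232. PGK1 moved the other way and ranked 1815 by the product and 1988 by FPKM among these genes. The lengths come from a later annotation than the authors' and need not be those their software used.

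The other genes for the same steps were below FPKM 30 in both libraries, and the highest were ENO2 in replicate 1 and PGAM4 in replicate 2. Of 14 isozyme genes, 12 had a row and 0 had a mean above FPKM 30, against 8.46% of all names. With so few genes this count shows nothing particular to the isozymes. At least 1 FPKM in both libraries was found for 2 of the 12 and for 10441 of all 16770 names. Of those 10441 genes, 13.6% were above 30. The 12 isozymes had a median of 0.152 FPKM, and the other 10 of them were below 1 in both libraries. ENO2, the neuronal enolase, had 5.42 FPKM in replicate 1 and 5.402 in replicate 2. Lower still on average were ALDOC (0.376 FPKM), GAPDHS (0.287), ENO3 (0.274), ENO4 (0.163), PKLR (0.00361), LDHC (0.111), LDHD (0.141), LDHAL6A (0.0487) and LDHAL6B (0.0575). PGK2 and PGAM2 had no row. LDHD, a D-lactate dehydrogenase, was counted in this list but left out of the lactate dehydrogenase step. ALDOA therefore held 99.8% of the aldolase FPKM in each library, GAPDH 99.9% of its step, and ENO1 94.9% of the enolase FPKM in replicate 1 and 94.8% in replicate 2.

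PGAM4, an intronless copy of PGAM1 on the X chromosome that codes for a mutase, had 1.96 FPKM in replicate 1 and 19.3 in replicate 2. This was 9.87 times higher in replicate 2, and only 0.0192% of the 10441 genes differed by more than 5 times. PGAM4 was the 1 gene of the 10441 with a difference as large as its own, and PGAM1 moved by a factor of 1.01 in the opposite direction. The sum of PGAM1 and PGAM4 was 369.95 FPKM in replicate 1 and 383 in replicate 2. The coding sequences of PGAM1 and PGAM4 have the same length, 762 bases, and differ at 13 of them, an identity of 98.3%. The longest identical run was 269 bases. Of the 100-base windows of the PGAM1 coding sequence, 26.4% occur exactly in that of PGAM4. Of the windows of the whole PGAM4 transcript, 18.6% occur in the PGAM1 transcript, and 17.4% of PGAM1 transcript windows occur at the PGAM4 locus. The 3 separate stretches of 30 bases within an exon that hold the most differing bases are shown. Within the coding sequence, reads can be assigned to PGAM1 or PGAM4 only where they cover differing bases. Capitals mark the bases that differ, and coding bases are counted from the A of the start codon. Coding bases 41 to 70 lie at chr10:97426348-97426377 (plus strand) in PGAM1 and at chrX:77969569-77969598 (minus strand) in PGAM4.
PGAM1 window 41 to 70: gcGcatggaacctggagaaccgcttcagcG
PGAM4 window 41 to 70: gcAcatggaacctggagaaccgcttcagcT
Coding bases 159 to 188 lie at chr10:97430398-97430427 in PGAM1 and at chrX:77969451-77969480 in PGAM4.
PGAM1 window 159 to 188: catctgcTtcacctcagtgcagaagagagC
PGAM4 window 159 to 188: catctgcCtcacctcagtgcagaagagagT
Coding bases 560 to 589 lie at chr10:97431100-97431129 in PGAM1 and at chrX:77969050-77969079 in PGAM4.
PGAM1 window 560 to 589: gcaacagcctccGgggcattgTcaagcatC
PGAM4 window 560 to 589: gcaacagcctccAgggcattgCcaagcatG
These windows differ at 2, 2 and 3 bases. The PGAM4 transcript, at chrX:77967949-77969638, also overlaps annotated exons of ATP7A on the opposite strand over 689 bases. ATP7A as a whole gene had 2.38 FPKM in replicate 1 and 2.44 in replicate 2. Whether reads of the overlap entered the level of PGAM4 was not tested.

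PGAM1 was also the glycolysis gene with the most sequence in common with the rest of the genome. A search of GRCh38 with cut-offs of 90% identity and 50% of the coding sequence found 35 copies of 9 of the 10 genes, and 0 of GPI. GAPDH had 11, PGAM1 8, LDHA 6, TPI1 4, PGK1 2, and ALDOA, ENO1, PKM and LDHB 1 each. Of the 35, PGAM4 was the only copy with a row under its current GENCODE name. Rows under older or other names were not looked for, so the other copies may have one. For PGAM1, 84.6% of the 100-base windows of the transcript occur exactly in a copy, and all 663 windows of its coding sequence do. The closest copies of PGAM1 are processed pseudogenes on chromosome 12 with 99.9% and 99.7% identity. The closest copy of TPI1 is TPI1P1 on chromosome 1 (98.1% identity). For TPI1 12.6% of windows occur in a copy, for PGK1 1.27% and for LDHA 0.607%. The other 6 genes, GAPDH among them, share no such window, although the closest GAPDH copy has 95.9% identity. The levels of PGAM1 and, to a lesser extent, TPI1 therefore depend on how reads with several matches were assigned, and the sources used here do not give it.

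Some of these transcripts also overlap other annotated genes. Another protein-coding gene on the same strand, ENSG00000285043, covers 89.8% of the ALDOA transcript, ENSG00000285854 covers 76.5% of that of LDHB and ENSG00000266953 covers 13.1% of that of GPI. A long non-coding RNA gene on the opposite strand, ENSG00000269968, covers 32.8% of GAPDH, and SPSB2 overlaps 14 bases of TPI1 on the opposite strand. Of these, SPSB2 alone has a row under its current GENCODE name, and other names were not looked for. The libraries were stranded, but the sources used here do not say whether strand was used in quantification.

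Hexokinase and phosphofructokinase had lower sums than the other steps, except phosphoglycerate kinase, which was lower still. The hexokinases, which trap glucose in the cell, summed to 36.5 FPKM in replicate 1 and 37.0 in replicate 2. HK1 led them with 26.3 and 26.6, followed by HK2 with 8.47 and 8.84, and HK3 had no row. The phosphofructokinases, which catalyse the committed step, summed to 34.1 and 34.2 FPKM, led by PFKM with 19.9 and 19.7. Aldolase, the next step, had a sum 6.44 times higher in replicate 1 and 6.21 times in replicate 2. Of the 11 steps, hexokinase, phosphofructokinase and phosphoglycerate kinase were the 3 with a sum below 50 FPKM.

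**Figure D1:**
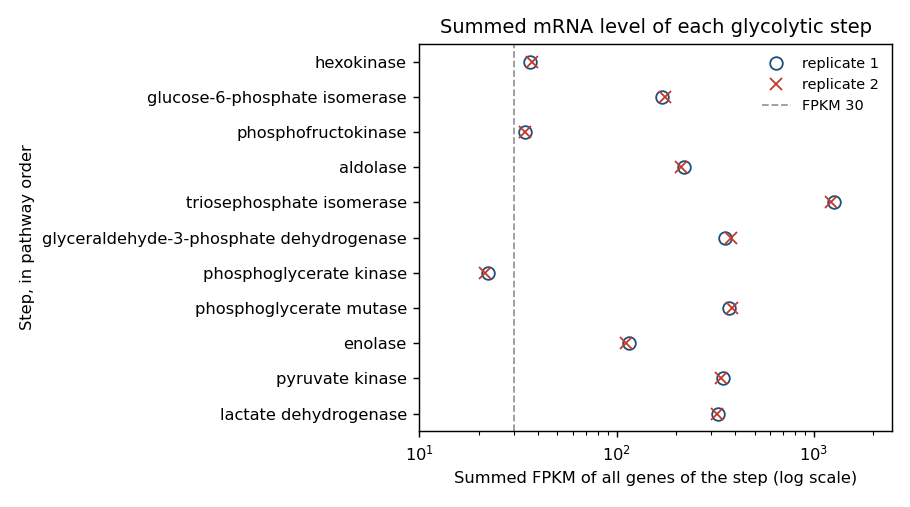
FPKM summed over all genes of a step (x axis, log scale) for 11 steps in pathway order (y axis). Replicate 1 is drawn as circles, replicate 2 as crosses, and the dashed line marks FPKM 30. Phosphoglycerate kinase, at 21.97, is the only step below the line, and hexokinase and phosphofructokinase lie just above it.

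Around the pathway, 82 other genes of glucose metabolism in 8 lists were looked up. Of these 75 had a row, 7 (9.33%) had a mean above FPKM 30, close to the 8.46% of all names, and their median was 5.27 FPKM. The counts per list that follow are to be read against 8.46% of all names and 13.6% of the 10441 genes with at least 1 FPKM in both libraries, and with so few genes a list they show nothing particular to a list. PGK1 was below 13 of them. No test between lists was made.

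Among the transporters, 0 of 11 were above FPKM 30. SLC16A1, a carrier of lactate and pyruvate, had 28.9 FPKM in replicate 1, against 29.0 in replicate 2, and EMB, an ancillary protein of such carriers, had 17.2 and 15.7. SLC2A1, the widespread glucose transporter, had 8.21 and 8.19 FPKM. Of the 9 genes before and at phosphofructokinase, 8 had a row and 0 were above 30, with HK1 and PFKM the highest. Of the 7 genes that control fructose bisphosphate or bisphosphoglycerate, 0 were above 30. PFKFB3, which makes an activator of phosphofructokinase, led with 25.7 and 25.6 FPKM, followed by TIGAR (listed as C12orf5), which degrades it, with 6.06 and 6.26.

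Of 15 genes of pyruvate entry into mitochondria, 14 had a row and 2 were above FPKM 30, a share near the 13.6% of the 10441 genes. PDP1, the phosphatase that activates pyruvate dehydrogenase, had 71.9 FPKM in replicate 1, against 71.0 in replicate 2, and DLAT, the core acetyltransferase of that complex, had 59.3 and 57.9. Of 8 gluconeogenic genes, 5 had a row and 0 were above 30. PCK2, the mitochondrial form of the carboxykinase, had 12.7 and 12.02 FPKM, and G6PC3 3.92 and 4.04.

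Of 10 genes at the branches to the pentose phosphate and glycerol routes, 3 were above FPKM 30. Among them, TALDO1 (transaldolase) had 54.5 FPKM in replicate 1 and 54.7 in replicate 2, while PGLS (the lactonase) had 38.2 and 37.8. Of 8 transcription factors and coactivators known to act on glycolysis genes, 2 were above 30. MYC had 55.6 and 56.7 FPKM, and HIF1A, the oxygen-regulated factor, had 55.5 and 54.9. In each library both were above PGK1 and below all the rest of the 10 glycolysis genes.

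**Figure D2:**
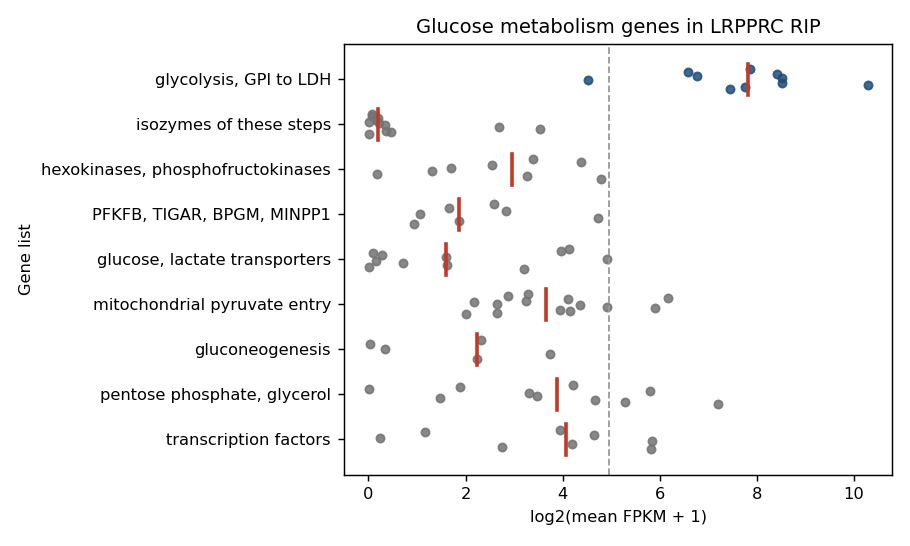
Level of each gene as log2(mean FPKM + 1) (x axis) in 9 gene lists (y axis). Points are genes, red bars are list medians and the dashed line is FPKM 30. The 10 glycolysis genes (blue, median 223 FPKM) lie above the line except PGK1, and 7 of the 75 other genes do.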

How the data were processed

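RIP-seq libraries were made from RNA precipitated with anti-LRPPRC from A549 cells (2 libraries, 1 condition). The deposited values are gene-level FPKM, which the authors computed for each library separately. Per the paper and the submitters' processing notes, adapters were removed with cutadapt 1.18, reads were aligned to GRCh38 with HISAT2 2.1.0 and sorted with SAMtools, and genes were quantified with StringTie 1.3.3b against an Ensembl annotation. The 4460 rows that the table marks as new genes, with no gene name, were left out of ranks but not of summed FPKM. Where a name had several rows, the row with the higher mean FPKM was kept.

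The mean, SD, rank and order of each gene were computed from the deposited values, with no test, since there is 1 condition. Depth is unknown and no whole reads were recovered, so no counting interval is given, and the number of libraries limits the precision. Genes below 1 FPKM in a library were left out of the background. Transcripts, lengths and overlaps were taken from GENCODE 44 on GRCh38, later than the authors' annotation. Older symbols were matched through RefSeq synonyms for lengths and gene lists, but not for copies and overlapping genes. Coding sequences were searched in the main chromosomes with blastn 2.17.0, and matches within 5000 bases were joined. Ranks, counts and window counts were tested on simulated data. Python 3.11.15, numpy 2.4.6, pandas 2.3.3 and matplotlib 3.10.9 were used.

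The 10 genes and the gene lists were chosen with earlier results of these data known. All 10 genes and the isozymes were named. Of each other list, genes above FPKM 30 were named, or the 2 highest where none was, and the genes ranked next to TPI1, LDHA and LDHB. SLC2A1, HK2, ATP7A and SPSB2 were named in addition, after their values were seen. SLIRP, MT-CO2, KRT19, CDH1 and EPCAM, all below FPKM 30, were also named outside this rule. Some genes that the rule would name are not reported here. The threshold, single libraries, pseudocounts, backgrounds, denominators and length scaling were varied. Protein sequences were not used here.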

Additional observations from a re-analysis of the deposited data

How the results depend on the processing

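Of 119 recalculations, 82 moved by no more than the spread between the libraries (counts: by no more than 1.5 times) and 37 by more. Some of the 82 could not come out otherwise, so their number is no measure of stability. A mean of 2 libraries always lies within their SD of each library, so leaving out a replicate cannot move a level by more. Summing the rows of a name left all 10 levels unchanged, because each gene has 1 row. Leaving out a replicate left 9 of 10 glycolysis genes above FPKM 30, as did the threshold in both libraries. At a threshold of 50 FPKM 9 were above it, and at 20 FPKM all 10 were, PGK1 included. At FPKM 20, 1 gene was above the threshold among the genes before and at phosphofructokinase, 1 among the bisphosphate control genes and 1 among the transporters, against 0 each at FPKM 30. The 10 genes held 1.65% of the summed FPKM of named genes and 1.64% of that of rows with at least 1 FPKM in both libraries. LDHB was 1.42 times LDHA by FPKM times length. The share of genes above FPKM 30 was 8.46% of all named genes and 10.6% of those with at least 0.1 FPKM in both libraries. All 20 ranks by FPKM times length moved, since the division by length was removed. Of the ranks by FPKM, 6 moved without replicate 1, GPI from 115 to 109 among them, and 2 moved without replicate 2. The sum of PGAM1 and PGAM4 (377 FPKM) was chosen after seeing the data, as was the length of the longest coding transcript. No paired analysis was possible because the libraries form a single group. With no depth given, the error of low levels such as those of the isozymes cannot be stated.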

Other observations

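In the list of all named genes, TPI1 and RHOA, a small GTPase, shared the top. RHOA had 1246 FPKM (replicate 1) and 1233 FPKM (replicate 2), so TPI1 was higher in replicate 1 and lower in replicate 2, and their values overlapped. LDHA stood between AKR1C3, an aldo-keto reductase, at 95.01 ± 1.68 FPKM (SD, n = 2), and BCL2L1, an inhibitor of apoptosis, at 94.7 ± 1.97 (SD, n = 2), whose values overlapped its own. LDHB stood between GNB1, a G protein subunit, at 231 ± 4.08 FPKM (SD, n = 2), and YWHAQ, a 14-3-3 protein, at 227 ± 4.40 (SD, n = 2). The values of GNB1 and of YWHAQ overlapped those of LDHB.

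The mRNA of LRPPRC itself had 184 FPKM in replicate 1, against 176.5 in replicate 2, and 6 of the 10 glycolysis mRNAs were above it in both libraries. GPI was below it in each library, by a small margin in replicate 2 (176.1 against 176.5 FPKM). Of the mitochondrially encoded mRNAs looked up, MT-CO3 had 661 FPKM, MT-CO1 606, MT-ND4 125 and MT-CO2 23.3, and TPI1 was above each of them in both libraries. SLIRP, the partner protein of LRPPRC, had 7.67 FPKM. Of the other transcripts often used as references, TUBB had 806 FPKM, ACTB 487 and RPLP0 395, all above the 367 of GAPDH.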
